A study of Homo sapiens with 34 samples.

Results

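Gene expression in Bmal1:luc U2OS cells cultured with the nicotinamide analog 6AN was set against that of control cultures over the second circadian cycle. The members were 12 of the 34 libraries in the series, namely the 6 RNA-seq libraries of 6AN cultures and the 6 of DMSO cultures labelled CT24, CT28, CT32, CT36, CT40, and CT44, which are given here as 24 to 44 hr. They were chosen by agent and labelled time alone and were compared in time-matched pairs. U2OS is a human osteosarcoma line, and every culture carried the same stably integrated reporter, in which the Bmal1 promoter drives luciferase. The cultures were synchronized with dexamethasone, a synthetic glucocorticoid, and then kept in medium with either 5 mM 6AN or the matched amount of its solvent DMSO. How long a culture had been in 6AN at each labelled time is not given in the sources used here. There was 1 library per agent and time point. The study's methods state that RNA was extracted in triplicate, but not whether the extracts were pooled, nor whether the time points came from separate experiments. The 6 time points of an agent therefore stand in for replicates here, and the p-values measure only the spread of the differences over time points of 1 line.

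6AN is converted in cells into an analog of NADP+ that competes with the cofactor in NADPH-producing steps of the pentose phosphate pathway, among them that of PGD. NADPH carries the reducing power for lipid synthesis and for the repair of oxidized glutathione and thioredoxin, and the pathway also yields ribose for nucleotides. Cells that run short of amino acids or are otherwise stressed phosphorylate the translation factor eIF2, which raises translation of the transcription factor ATF4 and transcription of its targets. Genes of DNA replication and of mitosis are transcribed in waves during the cell cycle under E2F factors and the DREAM and MuvB complexes, and their mRNAs decline when cells leave the cycle.

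Of 28690 loci in the tables of FPKM (fragments per kilobase of transcript, scaled to the library's mapped fragments), 13853 had a symbol and a mean of at least 1 FPKM over the 12 libraries and were tested. Each library was scaled by its median over these loci to a common median, and levels are given as scaled FPKM. Before this scaling, the medians lay between 10.4 and 10.5 FPKM in the 6AN libraries and between 10.77 and 10.97 in the DMSO libraries. Read totals were not given in the tables, but the spacing of low values placed the libraries at 0.695 to 1.42 times their median depth, with both 44-hr libraries lowest. Loci with at least 1 small RNA among their symbols took 55.1% to 56.7% of all FPKM with 6AN and 50.1% to 52.4% with DMSO. They are called small RNA loci here and include some coding genes that share a locus with a small RNA. The authors normalized the 6AN and the DMSO libraries in separate tables, so agent and table cannot be told apart beyond this scaling. Of 12 osteoblast-lineage markers, 8 were detected above 1 FPKM, among them VIM, BGLAP, RUNX2, ALPL, MSX2, SPP1, and TNFRSF11B, whereas SP7, IBSP, DLX5, and PTH1R stayed below 1 FPKM in all 12 libraries, with IBSP at 0. Of 15 markers of epithelial, blood, endothelial, neural, and liver cells, 12 stayed below 1 FPKM throughout. The neural marker RBFOX3 was at 3.2 to 4.5 FPKM with 6AN and 3.1 to 5.1 with DMSO. SYP, also neural, was at 3.7 to 5.2 and 1.5 to 4.5, and epithelial EPCAM reached 1.2 with DMSO. The summed level of the 15 was 9.11 to 11.4 FPKM with 6AN and 6.32 to 11.7 with DMSO.

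Most loci differed between agents, but by small amounts. limma was run on log2(scaled FPKM + 1) with the time point as a block, and a locus was called at a Benjamini-Hochberg adjusted p of at most 0.05. By this test 3655 loci (26.4%) rose and 3761 (27.1%) fell, 53.5% in all. Most differences were small, since 73.9% of the called loci differed by less than 1.5-fold, and the median absolute log2 difference over all loci was 0.24. Only 158 loci (1.14%) rose and 382 (2.76%) fell at least 2-fold, 3.9% in all. Over all loci the median difference was 0.01 on the log2 scale. The 6 values with 6AN lay wholly above the 6 with DMSO at 2192 loci (15.8%) and wholly below at 2429 (17.5%). Because so many loci were called, the counts given for gene lists are to be read against these shares. The shares depend on level. Without small RNA loci, 18.75% rose and 21.8% fell in the lowest quartile of mean level, against 31.4% and 37.2% in the highest. Lists of highly expressed genes therefore have a higher background than all loci. Fold changes on the log2(FPKM + 1) scale understate the change of low genes, and in bulk RNA fewer cells of a kind and less RNA per cell cannot be told apart.

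**Figure D1:**
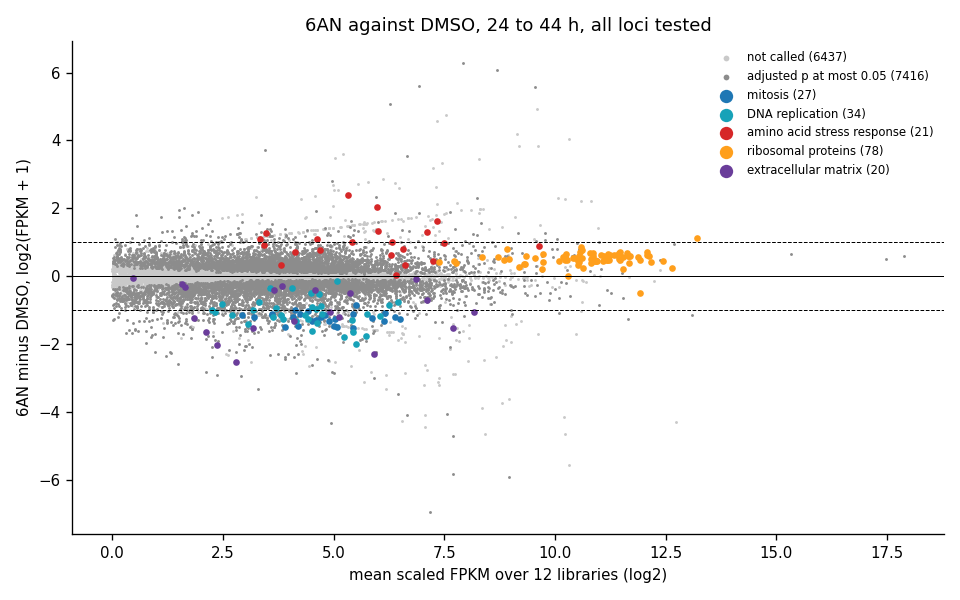
Difference between 6AN and DMSO libraries (log2 of scaled FPKM + 1, mean of 6 time-matched pairs) against mean scaled FPKM over the 12 libraries (log2 axis) for 13853 loci, with dashed lines at a 2-fold difference. Mitosis and DNA replication genes sit around the lower dashed line, whereas the ribosomal protein genes form a compact group of high-level genes above 0.

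Among loci of a single protein-coding or long noncoding symbol, the largest rise was that of MMP10, a secreted matrix metalloprotease. The gene lies at chr11:102770502-102780628 (hg38, as the tables give it). Its level ran from 19.1 to 25.3 scaled FPKM (median 20.01) with 6AN and from 0.337 to 0.977 (median 0.699) with DMSO. Its log2 difference over the 6 pairs was 3.71 ± 0.09 (adjusted p = 1.68e-06). Here and below, ± gives the SE of the limma fit, in which the variance of a locus is moderated by that of all loci. A second matrix metalloprotease, MMP1, an interstitial collagenase, ran from 5.30 to 9.12 scaled FPKM (median 6.35) with 6AN and from 0.592 to 1.53 (median 1.08) with DMSO (log2 difference 1.88 ± 0.13, adjusted p = 2.74e-05). Neither gene's groups overlapped, although the 6AN library at 24 hr was apart from the others for MMP1. TRIB3, a pseudokinase that binds ATF4, was measured from 48.3 to 100.3 scaled FPKM (median 69.7) with 6AN and from 8.82 to 15.7 (median 12.3) with DMSO and rose by 2.38 ± 0.11 (adjusted p = 6.12e-06). DDIT3, which encodes the stress factor CHOP, ran from 80.04 to 125 scaled FPKM (median 103) with 6AN and from 16.5 to 31.05 (median 25.4) with DMSO and rose by 2.03 ± 0.06 (adjusted p = 2e-06). Both genes were lowest at 24 hr and highest at 44 hr within the 6AN cultures. ANKRD1, a nuclear ankyrin-repeat protein and target of the YAP coactivator, ran from 434 to 651 scaled FPKM (median 494) with 6AN and from 81.4 to 120.2 (median 103) with DMSO and rose by 2.30 ± 0.12 (adjusted p = 9.81e-06).

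The other 7 of the 12 largest rises were noncoding RNAs, a pseudogene, and 1 coding gene. LINC00520 ran from 44.1 to 72.5 scaled FPKM (median 55.6) with 6AN and from 5.62 to 8.86 (median 6.69) with DMSO (log2 difference 2.80 ± 0.07). LINC01057 and ESRG, both long noncoding RNAs of higher level, rose by 1.90 ± 0.04 and 1.87 ± 0.06. The pseudogene WFDC21P rose by 1.92 ± 0.08, and SPOCD1 by 2.01 ± 0.14. The antisense RNAs DLGAP1-AS2 (2.33 ± 0.06) and LURAP1L-AS1 (1.94 ± 0.16) were also in this group. Whether the counting used strand is not given in the sources used here, so reads of these 2 cannot be told apart from those of an overlapping gene. All 12 had the higher value with 6AN in all 6 pairs, and the groups of none overlapped.

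Among the 12 largest falls were secreted proteins of inflammation and matrix. CCL2, the chemokine that attracts monocytes (locus chr17:34255277-34257201, hg38), ran from 4.55 to 12.002 scaled FPKM (median 5.96) with 6AN and from 52.8 to 57.4 (median 55.4) with DMSO and fell, with a log2 difference of -2.82 ± 0.17 (adjusted p = 1.99e-05). SERPINA1, a serum inhibitor of neutrophil elastase, ran from 5.42 to 10.6 scaled FPKM (median 6.20) with 6AN and from 47.8 to 64.7 (median 59.2) with DMSO (log2 difference -2.85 ± 0.16, adjusted p = 1.45e-05). Its relative SERPINA3 ran from 0 to 0.158 scaled FPKM (median 0.0392) with 6AN and from 3.05 to 7.62 (median 5.62) with DMSO (log2 difference -2.58 ± 0.14, adjusted p = 1.28e-05). The groups were far apart for all 3, and SERPINA3 was at 0 in 3 of the 6AN libraries. SOCS3, a feedback inhibitor of cytokine signaling, ran from 4.04 to 5.81 scaled FPKM (median 4.81) with 6AN and from 26.5 to 30.6 (median 30.1) with DMSO (log2 difference -2.39 ± 0.07). TNFRSF11B, which encodes the decoy receptor osteoprotegerin made by osteoblasts, ran from 5.42 to 8.78 scaled FPKM (median 6.75) with 6AN and from 38.5 to 44.6 (median 42.6) with DMSO (log2 difference -2.45 ± 0.07, adjusted p = 1.68e-06). TGFBI, a matrix protein induced by TGF-β, fell by 2.52 ± 0.05 on the log2 scale, PHLDA1 by 2.47 ± 0.05, HAPLN2 by 2.43 ± 0.12, PTP4A3 by 2.38 ± 0.13, and TCN1, a vitamin B12 carrier, by 2.95 ± 0.22. KLRC2 (-3.31 ± 0.13) and KLRC3 (-2.81 ± 0.16) encode near-identical lectin-like receptors whose reads the counting could have split, so their separate values are uncertain. All 12 were lower with 6AN in all 6 pairs, without overlap.

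**Figure D2:**
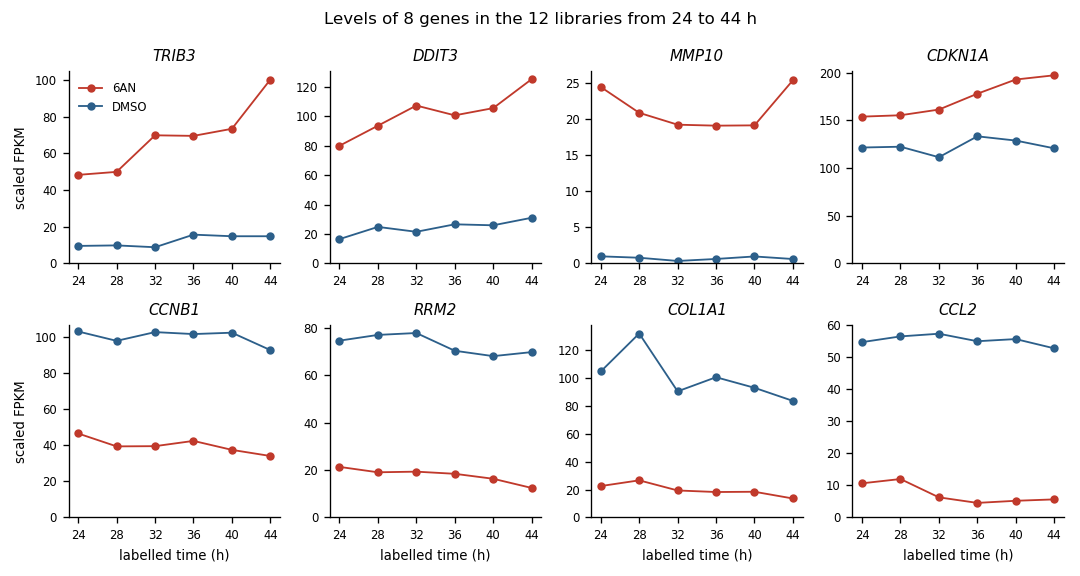
Scaled FPKM of 8 genes in the 12 libraries from 24 to 44 hr (1 library per point, red 6AN, blue DMSO, each vertical axis from 0). In each panel the 2 agents are apart at all 6 times, by the widest ratio for MMP10 and the narrowest for CDKN1A.

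Cell division genes were lower at every time point. All 27 mitosis genes fell, 25 of them at least 2-fold, with a median log2 difference of -1.22 (range -1.53 to -0.86) beside 0.01 for all loci. The level of CCNB1, the cyclin that activates CDK1 at mitotic entry, was 34.1 to 46.6 (median 39.5) with 6AN against 92.9 to 103 (median 102) with DMSO (log2 difference -1.31 ± 0.05, adjusted p = 2.7e-06). PLK1, a mitotic kinase, was at 12.7 to 14.6 (median 13.8) with 6AN against 33.1 to 37.6 (median 34.3) with DMSO (log2 difference -1.29 ± 0.05, adjusted p = 2.98e-06). The groups were well apart for both genes. The proliferation antigen MKI67 was at 7.75 to 11.4 (median 9.23) with 6AN against 24.4 to 30.4 (median 27.1) with DMSO and differed by -1.46 ± 0.04. BIRC5, NUSAP1, and KIF20A, which act on the spindle and in cytokinesis, had the largest falls of the list (-1.53 ± 0.09, -1.51 ± 0.06, and -1.50 ± 0.08). The smallest was that of CCNB2 (-0.86 ± 0.05), with 28.6 to 32.9 (median 32.4) with 6AN against 54.2 to 62.3 (median 58.9) with DMSO.

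Promoters of mitosis genes commonly hold a CHR element, to which the DREAM and MuvB complexes bind, next to CCAAT boxes bound by NF-Y. The letters TTTGAA, searched on both strands from 250 bases before to 50 after the RefSeq start, were in 14 of the 21 mitosis promoters found (66.7%), in 65 of 277 promoters of genes that fell at least 2-fold (23.5%), and in 9.54% of all 10103 promoters searched. CCAAT was in 19 of the 21 (90.5%) and in 36.4% of all. Matches are letters, not tested sites. The promoters of 3 genes of this group are shown because each holds 1 match, with the matching letters in capitals (RefSeq, GRCh38.p14, 5′ to 3′ on the gene's strand). The match begins at -29 from the start in CCNB2 and PLK1 and at -161 in CDK1.
CCNB2, chr15:59104896-59105195 (+ strand): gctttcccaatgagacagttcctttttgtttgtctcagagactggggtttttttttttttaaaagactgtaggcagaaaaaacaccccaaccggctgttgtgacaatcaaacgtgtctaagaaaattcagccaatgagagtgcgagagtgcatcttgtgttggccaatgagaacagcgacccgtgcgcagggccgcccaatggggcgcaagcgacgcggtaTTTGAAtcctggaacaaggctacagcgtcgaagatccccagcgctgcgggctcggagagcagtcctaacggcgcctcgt
PLK1, chr16:23678639-23678938 (+ strand): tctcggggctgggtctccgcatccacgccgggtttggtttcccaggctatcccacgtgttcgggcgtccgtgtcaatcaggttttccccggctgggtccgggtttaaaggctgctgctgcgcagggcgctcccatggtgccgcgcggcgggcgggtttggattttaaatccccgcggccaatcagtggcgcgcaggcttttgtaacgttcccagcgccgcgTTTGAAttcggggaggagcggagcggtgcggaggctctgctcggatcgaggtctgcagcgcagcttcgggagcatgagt
CDK1, chr10:60778081-60778380 (+ strand): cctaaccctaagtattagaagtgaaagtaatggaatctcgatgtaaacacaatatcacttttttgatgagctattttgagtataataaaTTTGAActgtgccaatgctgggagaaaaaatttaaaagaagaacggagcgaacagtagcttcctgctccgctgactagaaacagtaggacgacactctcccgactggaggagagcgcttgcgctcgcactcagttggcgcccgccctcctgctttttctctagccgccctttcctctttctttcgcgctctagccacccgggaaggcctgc

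All 34 DNA replication genes fell as well, 19 of them at least 2-fold, with a median of -1.12 and a range from -1.99 to -0.14. RRM2, the regulated subunit of ribonucleotide reductase, was at 12.4 to 21.3 (median 18.7) with 6AN against 67.96 to 77.7 (median 72.4) with DMSO (log2 difference -1.99 ± 0.08, adjusted p = 3.68e-06). TK1, the S-phase thymidine kinase, was at 19.7 to 26.7 (median 23.95) with 6AN against 74.2 to 90.5 (median 80.9) with DMSO (log2 difference -1.75 ± 0.05). Both enzymes supply deoxynucleotides, and other large falls were in parts of the replication fork. GINS2 and CDC45 of the replicative helicase fell by 1.78 ± 0.06 and 1.61 ± 0.09, and FEN1, the flap endonuclease, by 1.66 ± 0.04 on the log2 scale. PCNA, the sliding clamp, was at 57.8 to 70.4 (median 64.7) with 6AN against 99.4 to 121 (median 111) with DMSO and differed by -0.77 ± 0.06. RFC1, the large clamp loader subunit, changed least (-0.14 ± 0.04, adjusted p = 0.0212), and its groups overlapped. Its call was lost when 24, 32, 36, or 40 hr was left out (adjusted p = 0.0516, 0.0570, 0.0538, and 0.0538), so that 33 of the 34 then fell. The E2F letters GCGGGAA were in 14 of 30 replication promoters (46.7%), in 0 of the 21 mitosis promoters, and in 10.5% of all. MCM3, a helicase subunit that fell by 1.12 ± 0.05, holds 2 matches, 1 on each strand, in capitals here.
MCM3, chr6:52284693-52284992 (- strand): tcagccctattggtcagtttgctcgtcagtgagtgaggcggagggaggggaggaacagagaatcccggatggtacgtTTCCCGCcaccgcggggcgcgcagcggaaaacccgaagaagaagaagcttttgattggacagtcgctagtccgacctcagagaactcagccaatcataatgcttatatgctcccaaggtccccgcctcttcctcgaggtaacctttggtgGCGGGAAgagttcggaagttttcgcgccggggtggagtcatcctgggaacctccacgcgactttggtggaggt

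In contrast, clustered histone genes, many of whose mRNAs also follow S phase, did not share this pattern. Of 22 loci tested 5 rose, 0 fell, and 17 were not called (median 0.14, range -0.82 to 0.99). With small RNA loci left out 2 fell, and 1 fell without the time block or without 28 or 36 hr. Of 18 nucleotide synthesis genes 4 rose and 6 fell, beside 26.4% and 27.1% of all loci, with a median of -0.16. IMPDH2, the rate-limiting enzyme of guanine nucleotide synthesis, rose by 0.69, and PAICS, a purine synthesis enzyme, fell by 0.47 on the log2 scale.

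Extracellular matrix genes fell. Of 20 matrix genes tested, 18 fell (11 at least 2-fold) and 0 rose, with a median of -1.05. COL1A1, the main chain of type I collagen and a product of the osteoblast lineage, was at 13.6 to 26.6 (median 18.9) with 6AN against 83.5 to 132 (median 96.6) with DMSO (log2 difference -2.30 ± 0.05, adjusted p = 1.68e-06). SPARC, a collagen-binding glycoprotein, was at 89.4 to 125 (median 105) with 6AN against 287 to 329.7 (median 310.1) with DMSO (-1.52 ± 0.05), and fibronectin, FN1, at 168 to 215 (median 187) with 6AN against 374 to 413 (median 389.7) with DMSO (-1.05 ± 0.06). None of these groups overlapped. TNC (tenascin C) fell by 2.02 ± 0.08, COL8A1 by 1.65, COL5A2 by 1.52, and LOXL2, a collagen cross-linking enzyme, by 1.33. COL6A2 (-0.07) and the locus of COL3A1 (-0.04, under 2 scaled FPKM in all 12 libraries and shared with a microRNA) did not pass. The 8 osteoblast-lineage markers tested were mixed. TNFRSF11B (-2.45), ALPL (-0.59 ± 0.09), and VIM (-0.25 ± 0.03) were lower. SPP1 and MSX2 were higher (0.51 and 0.25), of which only 1 was called without 28, 36, 40, or 44 hr. RUNX2 at 0.04 ± 0.05 was not called (adjusted p = 0.533). The 6AN values lay wholly below those with DMSO for 3 of the 8 markers and wholly above for 0.

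ATF4 and its targets were raised. Of 21 genes of the integrated stress response, 19 rose, 9 of them at least 2-fold, and 0 fell. The median was 0.97, and 16 of the 21 had groups that did not overlap (15.8% of all loci did so upward). ATF4 itself was at 965 to 1145 (median 1026) with 6AN against 436 to 665 (median 572) with DMSO (log2 difference 0.90 ± 0.06, adjusted p = 1.99e-05). PPP1R15A, the eIF2 phosphatase subunit that closes the feedback loop, was at 77.6 to 122 (median 87.3) with 6AN against 31.4 to 45.1 (median 35.1) with DMSO (1.33 ± 0.03). NUPR1, a stress-induced chromatin protein, was at 183 to 206 (median 198) with 6AN against 53.6 to 99.4 (median 84.1) with DMSO (1.31 ± 0.11). These 3 were higher at every time point. ATF3 rose by 1.11 ± 0.05 and CTH, which makes cysteine from cystathionine, by 1.26 ± 0.08.

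For 2 amino acid genes of the group the distance narrowed from 24 to 44 hr, with a higher control level at 44 hr. ASNS, asparagine synthetase, ran from 94.96 to 124 scaled FPKM (median 105) with 6AN and from 31.98 to 75.4 (median 55.8) with DMSO, and its difference was 1.59 at 24 hr and 0.71 at 44 hr. For PSAT1, an enzyme of serine synthesis, the level in DMSO was 16.2 at 24 hr and 43.7 at 44 hr, against 47.96 and 62.6 with 6AN. PSAT1 had the smallest unadjusted p of all loci for a slope of the difference over the 6 time points (-0.0514 ± 0.0059 log2 per hr), but its adjusted p was 0.572, and 0 loci were called for a slope (1083 at an unadjusted p under 0.05). DDIT4, an inhibitor of mTORC1, was at 75.01 to 99.1 (median 85.9) with 6AN against 54.01 to 115 (median 87.5) with DMSO and was not called (0.04 ± 0.12). The locus of ATF5, shared with a microRNA, was not called either (1.64, adjusted p = 0.259).

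The letters TGATGNAA of the CHOP and ATF4 composite element were in 4 of 17 promoters of this list (23.5%), in 8 of 100 promoters of genes that rose at least 2-fold (8.0%), and in 1.68% of all. Promoters of ATF3 and ASNS are shown with the match in capitals, from -191 and -68.
ATF3, chr1:212565157-212565456 (+ strand): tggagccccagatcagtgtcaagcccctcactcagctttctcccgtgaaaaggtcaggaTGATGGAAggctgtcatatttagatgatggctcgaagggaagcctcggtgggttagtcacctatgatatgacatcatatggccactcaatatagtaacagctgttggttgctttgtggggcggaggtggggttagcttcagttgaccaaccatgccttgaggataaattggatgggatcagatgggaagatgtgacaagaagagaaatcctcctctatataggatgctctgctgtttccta
ASNS, chr7:97872359-97872658 (- strand): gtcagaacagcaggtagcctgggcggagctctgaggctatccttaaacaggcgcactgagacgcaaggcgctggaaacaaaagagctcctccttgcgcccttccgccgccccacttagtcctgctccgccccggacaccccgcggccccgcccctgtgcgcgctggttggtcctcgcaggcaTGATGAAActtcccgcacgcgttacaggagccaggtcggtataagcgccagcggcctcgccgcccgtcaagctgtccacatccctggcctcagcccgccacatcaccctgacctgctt

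Aminoacyl-tRNA synthetases, many of which are ATF4 targets, rose in part. Of 20 cytosolic synthetases 13 rose and 0 fell, with a median of 0.29. SARS, for serine, was at 249.5 to 307 (median 261) with 6AN against 129.7 to 177 (median 147) with DMSO (0.83 ± 0.04), and WARS and AARS rose by 0.70 and 0.66. VARS (-0.11) and HARS (-0.02) were not called.

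**Figure D3:**
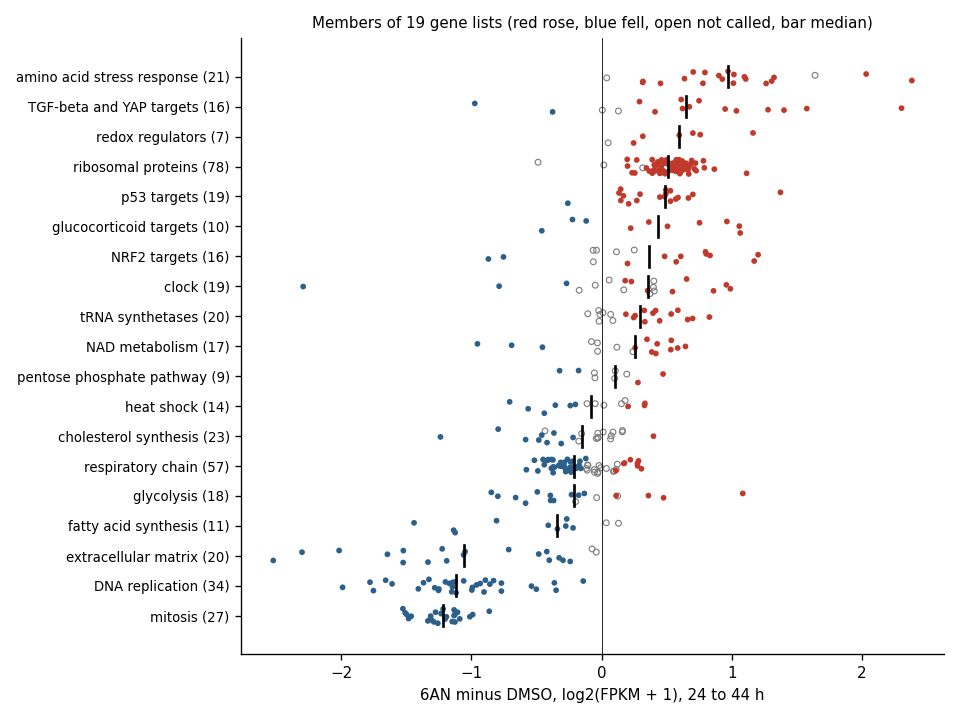
Log2 difference between 6AN and DMSO for each member of 19 gene lists (red, rose; blue, fell; open, not called; black bar, list median; number of members tested in brackets). Members of the stress response and ribosomal lists lie right of 0 except RPS27A (-0.49), and those of the matrix, replication, and mitosis lists lie left of it, whereas most metabolic lists straddle 0.

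Of 19 p53 targets 18 rose and 1 fell, with a median of 0.48. Only GDF15, a secreted stress cytokine that ATF4 and CHOP also induce, rose at least 2-fold, and its level was 47.7 to 89.7 (median 57.4) with 6AN against 13.9 to 37.3 (median 21.97) with DMSO (1.37 ± 0.14). CDKN1A, which encodes the cyclin-dependent kinase inhibitor p21, was at 154 to 197 (median 169.6) with 6AN against 111 to 133 (median 122) with DMSO (0.48 ± 0.05, adjusted p = 0.000318). BBC3, the proapoptotic PUMA, was at 38.7 to 45.4 (median 41.2) with 6AN against 22.3 to 27.9 (median 25.5) with DMSO (0.70 ± 0.05), and MDM2, the ubiquitin ligase of p53, at 27.1 to 32.7 (median 28.7) with 6AN against 20.8 to 26.02 (median 23.8) with DMSO (0.30 ± 0.05). All 3 were separate between agents by modest ratios. DDB2, a DNA damage sensor, was the exception and fell (-0.26 ± 0.03).

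Nearly all cytosolic ribosomal protein genes rose, most by less than 1.5-fold. Of 78 genes, 75 rose, 0 fell, and 73 had groups without overlap, with a median of 0.51. Only RPL17 passed 2-fold (1.11), and its groups overlapped. Among members of high level were RPLP1 at 6116 to 6871 (median 6372) with 6AN against 4494 to 5043 (median 4576) with DMSO (0.46 ± 0.03) and RPS18 at 5063 to 5789 (median 5439) with 6AN against 3191 to 3796 (median 3613) with DMSO (0.60 ± 0.04). RPL26 (0.87 ± 0.03) and RPL13 (0.79 ± 0.04) were next in size of change. RPL28 (0.02), RPS3A (0.32), and the locus of RPS27A, shared with a microRNA (-0.49), were not called. In each of these 3 a few libraries lay far from the rest, such as the DMSO library at 44 hr for RPS27A (32046 scaled FPKM). Ribosomal protein genes have many processed pseudogenes, among which the counting could split reads, so single values are uncertain. Their mRNAs start with a run of pyrimidines, the TOP motif, through which mTORC1 controls their translation. A run of at least 5 pyrimidines spanned the RefSeq start in 41 of 56 ribosomal promoters (73.2%) and in 9.05% of all. The start regions of 4 members, from 10 bases before the start, show the run in capitals (GRCh38.p14).
RPLP1, chr15:69452808-69452837 (+ strand): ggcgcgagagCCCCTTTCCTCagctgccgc
RPS18, chr6:33272065-33272094 (+ strand): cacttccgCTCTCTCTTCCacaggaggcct
RPL31, chr2:101002279-101002308 (+ strand): ccttcgcgCTCTTCCTTTCCaacttggacg
RPS6, chr9:19380217-19380246 (- strand): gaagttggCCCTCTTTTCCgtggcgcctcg

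Genes of the pentose phosphate pathway differed by less than 1.5-fold. PGD was at 123 to 133 (median 127) with 6AN against 87.2 to 96.5 (median 90.6) with DMSO and rose by 0.47 ± 0.03 (adjusted p = 2.56e-05). Of the 9 enzymes of the pathway, 2 rose (PGD and TKT, 0.28 ± 0.04) and 2 fell (TALDO1, -0.32 ± 0.04, and SHPK, -0.18), which is no more than the share of all loci. Only 1 of the 9 fell when 28, 32, 36, or 44 hr was left out. Of 12 NADPH sources outside it, 5 rose and 5 fell. The largest rises were in mitochondrial folate metabolism, with MTHFD2 at 163 to 200.04 (median 177) with 6AN against 78.7 to 132 (median 110.4) with DMSO (0.75 ± 0.08), ALDH1L2 at a difference of 0.66, and MTHFD1L at 0.62. IDH2, the mitochondrial NADP-dependent isocitrate dehydrogenase, fell (-0.79 ± 0.07), as did MTHFD1, NNT, ME1, and IDH1 by smaller amounts.

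NRF2 (gene NFE2L2) pairs with small MAF proteins at antioxidant response elements. NFE2L2 was at 38.4 to 47.8 (median 42.8) with 6AN against 31.2 to 38.1 (median 34.2) with DMSO and rose by 0.32 ± 0.07 (adjusted p = 0.00719). Of 7 regulators in this list 6 rose, with MAFK at 52.04 to 61.2 (median 58.8) with 6AN against 22.2 to 32.1 (median 24.8) with DMSO (1.16 ± 0.06), and only NFE2L1 was not called (0.05). Among 16 NRF2 targets 9 rose, 2 fell, and 5 were not called (median 0.37). SRXN1, which repairs overoxidized peroxiredoxins, was at 51.1 to 81.3 (median 60.5) with 6AN against 22.8 to 27.4 (median 26.5) with DMSO (1.20 ± 0.07). OSGIN1 rose by 1.17 ± 0.09, SLC7A11, the cystine transporter, by 0.83 ± 0.13, FTH1, ferritin heavy chain, by 0.80 ± 0.03, and GCLC, the catalytic subunit for glutathione synthesis, by 0.80 ± 0.04. The NADPH-using reductases TXNRD1, at 101 to 120.2 (median 107) with 6AN against 56.8 to 83.6 (median 71.9) with DMSO (0.61 ± 0.05), and GSR, at 35.1 to 46.8 (median 36.8) with 6AN against 26.01 to 28.4 (median 26.9) with DMSO (0.48 ± 0.05), rose as well. The list was split, since NQO1, a classical NRF2 target, was at 16.6 to 23.5 (median 20.5) with 6AN against 31.9 to 36.5 (median 35.5) with DMSO and fell (-0.75 ± 0.05), and HMOX1 was at 28.4 to 63.7 (median 34.9) with 6AN against 26.3 to 43.6 (median 35.97) with DMSO and was not called (0.11 ± 0.10, adjusted p = 0.381). Among the fallen genes of peroxide removal were catalase (CAT, -0.86 ± 0.05) and PRDX4 (-0.63), as part of 9 of 20 that fell and 4 that rose. The largest rise there was TXNIP, the inhibitor of thioredoxin, at 83.9 to 104 (median 98.9) with 6AN against 19.7 to 45.3 (median 30.7) with DMSO (1.59 ± 0.13).

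NAD metabolism genes were higher in 9 and lower in 3 of 17. SIRT1, an NAD-dependent deacetylase, was at 18.3 to 23.4 (median 20.5) with 6AN against 12.1 to 14.5 (median 12.6) with DMSO (0.64 ± 0.05, adjusted p = 8.07e-05), and NAMPT, the rate-limiting enzyme of NAD salvage, at 26.1 to 29.6 (median 27.99) with 6AN against 18.7 to 25.9 (median 20.9) with DMSO (0.35 ± 0.07). QPRT, of de novo NAD synthesis, fell (-0.95 ± 0.07). The acetyltransferase EP300 rose by 0.25 ± 0.03 (adjusted p = 0.000602) and its paralog CREBBP by 0.62. They were part of 4 of 11 acetyltransferases, deacetylases, and corepressors that rose, and 3 fell. Of all loci 26.4% rose and 27.1% fell.

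Genes of several metabolic pathways were lower in part. Of 11 fatty acid synthesis genes 9 fell and 0 rose (median -0.34). The desaturase FADS2 was at 20.7 to 24.3 (median 21.7) with 6AN against 48.4 to 73.5 (median 61.5) with DMSO (-1.44 ± 0.06). SREBF1, the transcription factor that drives the pathway, was at 8.51 to 14.05 (median 11.97) with 6AN against 22.2 to 31.7 (median 26.3) with DMSO (-1.12 ± 0.06), and the elongase ELOVL6 fell by 1.14 ± 0.09 and the desaturase SCD by 0.81 ± 0.11. FASN itself fell only by 0.27 ± 0.07. Among 23 cholesterol genes 9 fell, 1 rose (4 without 24 hr), and 13 were not called (median -0.15). EBP, a late enzyme of the pathway, fell most (-1.24 ± 0.06).

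Glycolysis genes fell in 11 and rose in 4 of 18 (median -0.22). LDHA, lactate dehydrogenase, was at 168 to 192 (median 178) with 6AN against 302 to 352 (median 317) with DMSO (-0.85 ± 0.05). HK2, an inducible hexokinase, went the other way, at 15.5 to 19.5 (median 17.4) with 6AN against 6.22 to 8.60 (median 8.05) with DMSO (1.09 ± 0.04), as did the glucose transporter SLC2A1 (0.48). Subunits of the respiratory chain and ATP synthase fell in 34 and rose in 8 of 57, with a median of -0.21 and no change of 2-fold (lowest, NDUFB10 at -0.58). Of 13 hypoxia-inducible genes 8 rose and 2 fell, with VEGFA at 1.001 the largest.

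Of 16 targets of TGF-β and of the mechanosensitive coactivator YAP, 12 rose and 2 fell (1 without 36 hr), with a median of 0.65. After ANKRD1, the largest rises were in CTGF, at 445 to 539 (median 474) with 6AN against 139 to 205 (median 154) with DMSO (1.58 ± 0.05), and CYR61, at 302 to 321 (median 307) with 6AN against 101 to 134 (median 114) with DMSO (1.40 ± 0.05), 2 matricellular proteins. The exceptions were ID3, at 9.18 to 12.95 (median 11.1) with 6AN against 21.1 to 24.2 (median 21.8) with DMSO (-0.97 ± 0.09), and ID1 (-0.38), which respond to BMP signals. Thus the TGF-β-responsive TGFBI and COL1A1 fell while CTGF rose in the same libraries.

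Immediate early genes were mixed, with 8 rising and 5 falling of 16. DUSP1, a phosphatase of MAP kinases, was at 49.01 to 89.9 (median 59.4) with 6AN against 14.01 to 26.7 (median 19.1) with DMSO (1.64 ± 0.09), and MYC rose by 1.18, while FOS fell (-0.45). Genes induced by glucocorticoids, to which all cultures were exposed at synchronization, rose in 7 and fell in 3 of 10. The metallothioneins MT2A, at 8099.6 to 9126 (median 8729.5) with 6AN against 3931 to 4956 (median 4499) with DMSO (0.96 ± 0.07), and MT1E (1.07 ± 0.10), and TSC22D3, which encodes GILZ (1.06 ± 0.07), rose, whereas the locus of FKBP5, shared with a noncoding RNA, fell by 0.22 ± 0.04. Metallothioneins are near-identical paralogs, so their separate values are uncertain. Of 19 lysosome and autophagy genes 13 rose and 2 fell (1 without 32, 36, or 44 hr), led by the proteases CTSB, at 1205 to 1312 (median 1232) with 6AN against 460.4 to 574 (median 519.7) with DMSO (1.27 ± 0.05), and CTSL, at 206 to 450.1 (median 360.4) with 6AN against 135 to 185 (median 159.7) with DMSO (1.04 ± 0.11). Interferon-response genes fell in 8 and rose in 0 of 11 (median -0.28), and NF-κB targets fell in 5 and rose in 3 of 10, with CCL2 by far the lowest.

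Of 17 folding genes of the endoplasmic reticulum 6 rose and 7 fell. This is close to the shares in the highest quartile of mean level, where 31.4% of loci rose and 37.2% fell. Among those that fell were the disulfide isomerase PDIA6, at 191 to 219.5 (median 203) with 6AN against 286 to 326 (median 313) with DMSO (-0.60 ± 0.04), and SDF2L1 (-0.61 ± 0.06), whereas the transcription factor XBP1 rose (0.45 ± 0.11) and the chaperone HSPA5 was at 129 to 148 (median 135) with 6AN against 128 to 172 (median 154) with DMSO, not called (-0.16 ± 0.08). Of 14 heat shock genes 6 fell and 3 rose, beside 37.2% and 31.4% of loci in that quartile. The cochaperone BAG3 fell (-0.71 ± 0.05), and mitochondrial HSPA9 rose (0.33 ± 0.05).

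In the circadian clock BMAL1 (gene ARNTL) and CLOCK activate E-box genes, among them the repressors of the PER and CRY families and the REV-ERBs NR1D1 and NR1D2, which in turn repress ARNTL. Of 19 clock genes tested, 8 rose and 3 fell (median 0.35). BHLHE41 (DEC2) was at 4.53 to 7.004 (median 5.24) with 6AN against 29.3 to 32.4 (median 31.1) with DMSO (log2 difference -2.29 ± 0.10, adjusted p = 5.33e-06). Its paralog BHLHE40 (DEC1) moved oppositely, at 84.3 to 103 (median 93.1) with 6AN against 39.9 to 52.9 (median 48.3) with DMSO (0.96 ± 0.09, adjusted p = 0.000113). PER1 was higher with 6AN in all 6 pairs, at 18.6 to 42.8 (median 30.9) with 6AN against 10.5 to 22.02 (median 14.02) with DMSO (0.99 ± 0.16), although its groups overlapped. NFIL3 (0.86 ± 0.16), RORA (0.65 ± 0.06), and CRY2 (0.55 ± 0.14) rose, and NPAS2, a paralog of CLOCK, fell, at 15.4 to 20.2 (median 17.6) with 6AN against 27.6 to 40.2 (median 29.4) with DMSO (-0.79 ± 0.11). CLOCK fell slightly (-0.27 ± 0.05, adjusted p = 0.00296).

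For rhythmic genes the mean over the cycle hid opposite differences at different hours. ARNTL was at 11.7, 7.13, 4.83, 4.58, 5.34, and 8.89 scaled FPKM with 6AN from 24 to 44 hr. With DMSO it was at 5.87, 6.51, 7.90, 9.95, 6.63, and 5.73 at the same hours. The treated cultures were thus at their lowest level at 36 hr, where the control cultures had their highest, and the difference over the cycle was -0.05 ± 0.25, not called (adjusted p = 0.885). NR1D1 was the counterpart, with a difference of 1.32 at 32 hr and -0.57 at 40 hr, and was not called over the cycle (0.37 ± 0.26). DBP differed by 0.70 at 32 hr and by -1.20 at 44 hr (-0.17 ± 0.24 over the cycle). NR1D2 (0.40 ± 0.19), TEF (0.17 ± 0.27), PER3 (0.06 ± 0.25), PER2 (0.40 ± 0.15), and CRY1 (0.41 ± 0.17) were not called either (PER2 and CRY1 were with small RNA loci left out, adjusted p = 0.0309 and 0.0390), and each was higher in some pairs and lower in others. With 1 library per hour, a difference at 1 hour has no replicate. HLF and CIART were below the level tested.

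**Figure D4:**
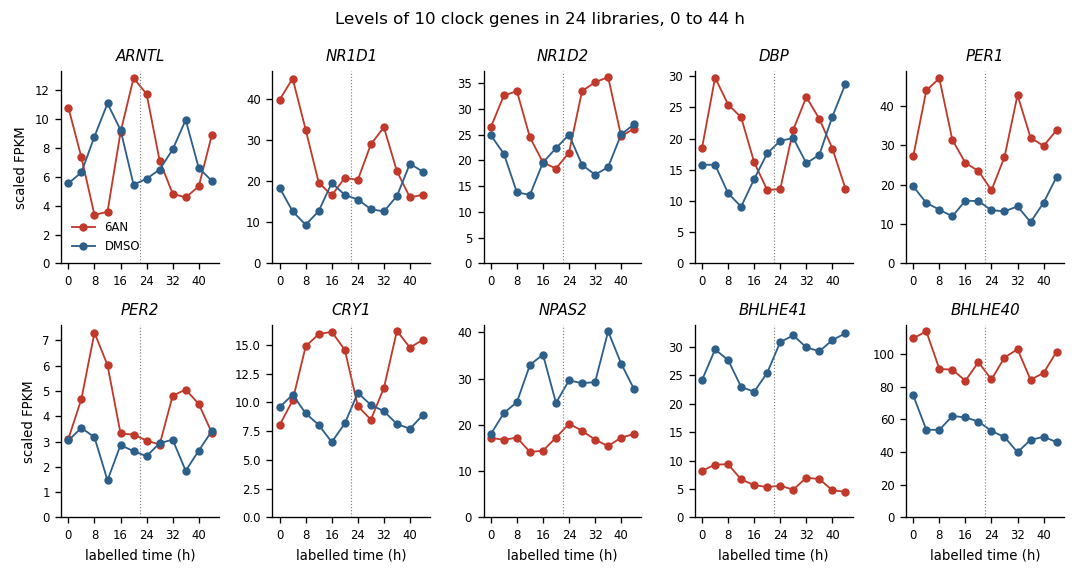
Scaled FPKM of 10 clock genes in the 24 RNA libraries from 0 to 44 hr (red 6AN, blue DMSO, dotted line between the cycles, each vertical axis from 0). From 24 hr on, ARNTL peaks at 36 hr with DMSO, where it has its lowest value of that cycle with 6AN, whereas BHLHE41 and NPAS2 stay lower and BHLHE40 stays higher with 6AN at every hour.

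The E-box letters CACGTG were in 4 of 16 clock promoters and in 10.2% of all. The promoters of PER1, which rose, and BHLHE41, which fell, each hold 1 match, in capitals, at -173 and -48.
PER1, chr17:8152355-8152654 (- strand): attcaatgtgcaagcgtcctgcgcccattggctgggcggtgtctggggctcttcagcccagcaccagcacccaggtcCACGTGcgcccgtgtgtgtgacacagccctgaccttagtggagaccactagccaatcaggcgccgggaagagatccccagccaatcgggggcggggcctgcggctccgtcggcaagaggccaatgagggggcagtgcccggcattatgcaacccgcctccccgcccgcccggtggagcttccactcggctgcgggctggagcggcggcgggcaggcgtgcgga
BHLHE41, chr12:26124988-26125287 (- strand): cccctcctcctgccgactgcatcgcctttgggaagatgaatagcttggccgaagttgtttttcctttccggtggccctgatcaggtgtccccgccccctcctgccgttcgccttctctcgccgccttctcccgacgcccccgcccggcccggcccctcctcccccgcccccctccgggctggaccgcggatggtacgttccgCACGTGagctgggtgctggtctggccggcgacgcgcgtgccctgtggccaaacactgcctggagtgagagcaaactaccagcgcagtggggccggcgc
The 223 sites that BMAL1 and CLOCK shared under 6AN within 1 kb of a start were assigned to 209 tested genes, of which 83 rose (39.7%, against 26.4% of all loci) and 47 fell (22.5%, against 27.1%), with a median of 0.07. DDIT3, TXNIP, and OSGIN1 were among those that rose, and BHLHE41 and LDHA among those that fell. For the shared sites of the control cultures, 34 of 79 genes rose (43.0%) and 14 fell (17.7%). The difference between the 2 site lists was not tested, and the genes were not matched to other loci by level. In the third and highest quartiles of mean level, without small RNA loci, 32.4% and 31.4% of loci rose and 29.15% and 37.2% fell.

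Most large differences were already present at the labelled times of 0 to 20 hr. At 0 hr itself the median difference was -0.66 for replication genes, -0.63 for mitosis genes, and 0.85 for the stress response list. Of the 158 loci that rose at least 2-fold in the second cycle, 155 were higher with 6AN in the first (46.5% of all loci were), and of the 382 that fell as much, 376 were lower (52.5% of all). The change between cycles was tested on the 12 time-matched differences, which share no library between cycles. It was called upward at 566 loci (4.09%) and downward at 508 (3.67%). These counts rest in part on single time points, since without 0 hr they were 303 and 328 and without 4 hr 326 and 326. All 27 mitosis genes were among those lower in the second cycle, and their median difference went from -0.47 to -1.22. In the first cycle it lay between -0.87 and -0.26 at single hours and in the second between -1.29 and -1.16. The summed level of these genes was 721 to 1236 scaled FPKM with 6AN in the first cycle and 479.9 to 588 in the second, whereas with DMSO it was 1084 to 1919 and 1235 to 1331. The second-cycle sums with 6AN all lay below those of the first, whereas the DMSO ranges overlapped. PLK1 is an example, with -0.31 in the first cycle and a change of -0.98 ± 0.14 (adjusted p = 0.00293), and CCNB1 changed by -0.75 ± 0.10 (adjusted p = 0.00224).

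Replication genes, lower from 0 hr on (first-cycle median -0.74), changed in 15 of 34 (9 without 0 hr), all downward, and matrix genes in 10 of 20. p53 targets had a first-cycle median difference of 0.01, and the difference was higher in the second for 9 of 19. CDKN1A differed by 0.05 first, with a change of 0.44 ± 0.08 (adjusted p = 0.00748). For ribosomal protein genes the difference was higher in 45 of 78 (first-cycle median 0.31). By contrast, the stress response list had a median of 1.04 in the first cycle and 0.97 in the second, with 1 gene called upward and 2 downward, and CHAC1, a glutathione-degrading enzyme and ATF4 target, went down from 1.79 to 0.70 (change -1.09 ± 0.20, adjusted p = 0.00791). For heat shock genes the difference moved upward between cycles in 8 of 14. Its median was -0.46 in the first and -0.08 in the second. Their median summed level went from 3221 to 3471 scaled FPKM with 6AN and from 4500 to 4028 with DMSO.

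MGP, matrix Gla protein, an inhibitor of calcification, had the largest change between cycles among the named loci. It differed by 2.76 in the first cycle and by 0.42 ± 0.17 in the second (change -2.35 ± 0.25, adjusted p = 0.000724). The second-cycle difference alone was not called (adjusted p = 0.0714), but it was without 40 hr (0.54, adjusted p = 0.0329), without 44 hr (0.53, adjusted p = 0.0415), and with small RNA loci left out (adjusted p = 0.0338). CHI3L1, a secreted chitinase-like protein, went from 0.96 to -0.86 (change -1.82 ± 0.39, adjusted p = 0.0165), although its second-cycle difference was not called without 32, 36, 40, or 44 hr (adjusted p from 0.0511 to 0.0767). The differences of SERPINA3, TCN1, and SERPINA1 went further down, by 1.57 ± 0.30, 1.51 ± 0.32, and 1.44 ± 0.27. Upward, SAA1, an acute-phase protein, went from -0.33 to 1.20 ± 0.16 (change 1.53 ± 0.35, adjusted p = 0.0232), and WFDC21P, LOC100131626, TNNC1, and PLAC8 changed by 1.08 ± 0.14, 1.12 ± 0.27, 1.07 ± 0.17, and 1.02 ± 0.17. TNNC1 and LOC100131626 were not called in the second cycle itself (adjusted p = 0.0924 and 0.114), but TNNC1 was without 24 hr (adjusted p = 0.00241) and with small RNA loci left out (adjusted p = 0.0405). After PSAT1, the smallest p values for a slope within the second cycle were those of ERICH2 and TCEAL1, with adjusted p of 0.572 and 0.572.

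**Figure D5:**
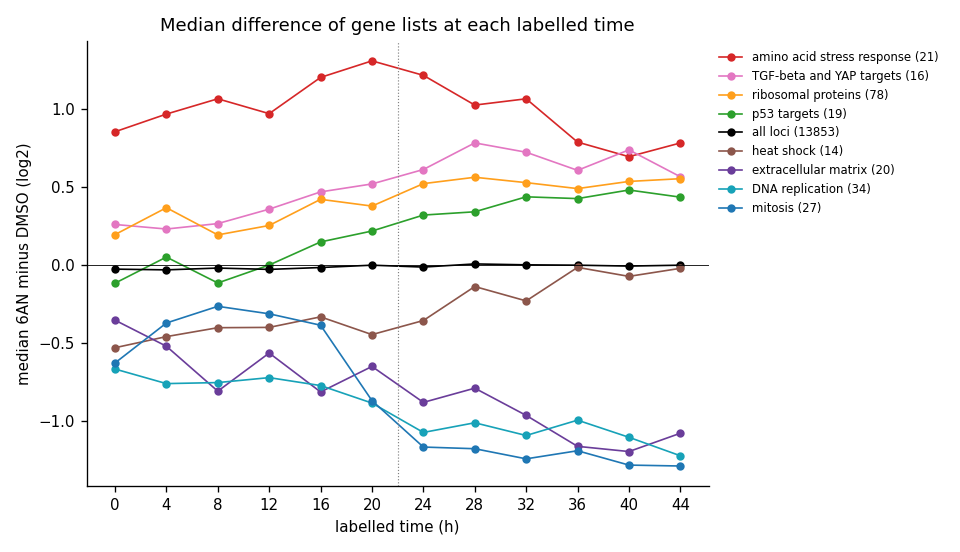
Median log2 difference between 6AN and DMSO over the members of 8 gene lists and over all loci at each labelled time from 0 to 44 hr (number of members in brackets, dotted line between the cycles, 1 library per agent and time). The mitosis median drops between 16 and 24 hr and then stays between -1.29 and -1.16, and the p53 median passes from around 0 to 0.32 and above, while the median of all loci stays near 0.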

How the data were processed

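Gene expression was measured by RNA-seq of rRNA-depleted total RNA in 24 libraries, of which the 12 labelled 24 to 44 hr were compared and the 12 of the first cycle served for the change between cycles. The FPKM values were made and deposited by the authors with TopHat, Bowtie, and Cufflinks on hg38. Versions and whether counting used strand are not given in the sources used here. The 6AN and DMSO libraries came in separate tables, each normalized by the authors on its own. The FPKM tables hold no counts, so depth is known only as a relative value. The deposited lists of BMAL1 and CLOCK sites, made with HOMER, were used for positions, distances to the nearest start, and gene names only. Their score columns and the merged peak list were not used. The FPKM columns used all map to a labelled sample, with 0 columns left over.

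Loci with a symbol and a mean of at least 1 FPKM over the 12 libraries were kept, each library was divided by its median over these loci and multiplied by the mean of these medians, and log2(scaled FPKM + 1) was tested in limma 3.58.1 (R 4.3.3) with a mean-variance trend and the time point as a block, 2-sided. Values were adjusted by Benjamini-Hochberg over all 13853 loci and called at 0.05. The change between cycles was tested on 12 time-matched differences and the slope on 6 differences with the hour as covariate. All models were also run on simulated data with independent noise. That setting does not cover related successive time points or the separate tables of the agents. Python 3.11.15 with numpy 2.4.6, pandas 2.3.3, and matplotlib 3.10.9 served for lists, sequences, and figures. Promoters and start sites are from RefSeq (GRCh38.p14) and were matched by symbol for 10103 of 12907 loci of a single symbol without small RNAs.

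The genes named were the 12 largest rises and 12 largest falls among called loci with 1 symbol, a mean of at least 2 scaled FPKM, and the same sign in all 6 pairs, then list members in order of size, genes the study names, clock genes, and the loci of largest change between cycles or smallest p for a slope. Promoters were chosen for print after their matches were seen. The members and lists were chosen with earlier results of these data known. The time points pair the libraries by their labels. Alternatives were another pseudocount, other filters, other scalings, small RNA loci left out, no time block, limma without trend or robust, a stricter threshold, and each time point left out. Some genes of the lists are counted but not reported by name here.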

Additional observations from a re-analysis of the deposited data

Results flagged for a closer look

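In 278 groups of 6 libraries (139 named genes, 2 agents), 1 library stood apart from the other five in 14, by a gap of more than 0.625 of the group's range. Chance alone flags about 5% of groups, which is about the share seen here. The 6AN library at 24 hr stood apart for MMP1 (9.12 scaled FPKM against 5.30 to 6.61 in the others), TCN1 (2.36 scaled FPKM against 0.546 to 0.938 in the others), and FADS2 (24.3 scaled FPKM against 20.8 to 21.9 in the others). The 6AN library at 36 hr stood apart for CCNB2 (28.6 scaled FPKM against 32.3 to 32.9 in the others). The 6AN library at 44 hr stood apart for ERICH2 (7.80 scaled FPKM against 3.29 to 4.69 in the others), GSR (46.8 scaled FPKM against 35.1 to 39.3 in the others), HMOX1 (63.7 scaled FPKM against 28.4 to 39.3 in the others), and XBP1 (103 scaled FPKM against 73.0 to 83.4 in the others). The DMSO library at 24 hr stood apart for SOCS3 (26.5 scaled FPKM against 29.5 to 30.6 in the others), and SIRT1 (14.5 scaled FPKM against 12.1 to 12.8 in the others). The DMSO library at 28 hr stood apart for TNC (10.4 scaled FPKM against 8.11 to 8.79 in the others), and OSGIN1 (9.19 scaled FPKM against 12.1 to 12.9 in the others). The DMSO library at 44 hr stood apart for PPP1R15A (45.1 scaled FPKM against 31.4 to 36.5 in the others), and MAFK (32.1 scaled FPKM against 22.2 to 25.7 in the others).

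The difference between 6AN and DMSO was itself different between the cycles for 52 of the 139 genes, by limma on the 12 time-matched differences (adjusted p at most 0.05 over all loci, where 7.75% of loci passed). The genes are not a random sample, since 10 of them were named for this change. The difference was more negative in the second cycle for MGP (-2.35), CHI3L1 (-1.82), SERPINA3 (-1.56), TCN1 (-1.51), SERPINA1 (-1.44), KLRC2 (-1.20), PHLDA1 (-1.17), CHAC1 (-1.09), TXNIP (-0.99), PLK1 (-0.98), KLRC3 (-0.96), MKI67 (-0.93), KIF20A (-0.86), BIRC5 (-0.81), MMP10 (-0.78), NUSAP1 (-0.77), CCNB1 (-0.75), TK1 (-0.73), TNC (-0.70), IDH2 (-0.66), CCNB2 (-0.66), COL1A1 (-0.64), BHLHE41 (-0.63), GINS2 (-0.61), FN1 (-0.57), RRM2 (-0.51), CDC45 (-0.49), CDK1 (-0.46), FEN1 (-0.44), SPARC (-0.42), and CAT (-0.35) on the log2 scale. It was more positive for SAA1 (1.53), LOC100131626 (1.12), WFDC21P (1.08), TNNC1 (1.07), PLAC8 (1.02), CTSL (0.74), ANKRD1 (0.72), TRIB3 (0.69), TCEAL1 (0.50), HSPA5 (0.48), MDM2 (0.45), DUSP1 (0.45), CDKN1A (0.44), RPL26 (0.42), HSPA9 (0.39), RPS18 (0.34), RPL31 (0.32), NQO1 (0.32), HK2 (0.28), RPL13 (0.20), and SARS (0.19). The sign of the fitted difference itself turned for SAA1, LOC100131626, TNNC1, PLAC8, CHI3L1, TCEAL1, MDM2, and HSPA9. Some of these differences were small in 1 cycle, namely those of HSPA9 (-0.06) and MDM2 (-0.16) in the first and TCEAL1 (0.09) in the second. Those of TNNC1 and LOC100131626 were not called in the second cycle.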

How the results depend on the processing

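With a pseudocount of 0.1 in place of 1, 282 loci rose and 647 fell at least 2-fold, beside 158 and 382. The other planned settings kept the counts of called loci within 1.5 times, from 2576 and 2751 at an adjusted p of 0.01 to 3816 rises with upper quartile scaling and 4347 falls without scaling, and 0 called loci changed sign. Leaving out 1 time point gave 3232 to 3481 rises, 3362 to 3532 falls, 141 to 164 rises of 2-fold, and 385 to 403 falls of 2-fold. For the change between cycles it gave 303 to 613 loci higher and 326 to 505 lower, and the upward count moved by over 1.5 times without 0 hr (303), 4 hr (326), 12 hr (370), 28 hr (369), 36 hr (352), or 44 hr (346). Without the time block, 3671 loci rose and 3777 fell, and NR1D2, PER2, and CRY1 passed the test (log2 differences 0.40, 0.40, and 0.41). PER2 and CRY1 also passed with small RNA loci left out (adjusted p = 0.0309 and 0.0390), and PER2 in limma with robust empirical Bayes (adjusted p = 0.0417). The pentose phosphate genes that fell went from 2 to 1 without the time block, without a filter, at a mean of at least 5 FPKM, with upper quartile or median of ratios scaling, with robust limma, with small RNA loci left out, at an adjusted p of 0.01, and without 28, 32, 36, or 44 hr. With the hour within the cycle as a block, 422 loci were higher and 390 lower between cycles. The labels give no replicate numbers, and the libraries are paired by time point alone.

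Signs turned only for genes that were not called. Without scaling, DDIT4 was at -0.012 and RUNX2 at -0.010. Leaving out 1 time point moved ARNTL between -0.24 and 0.14 (positive without 32 or 36 hr), PER3 between -0.12 and 0.25 (negative without 32, 36, or 40 hr), TEF between -0.0088 and 0.37 (negative without 32 hr), and DBP between -0.35 and 0.033 (positive without 44 hr). It moved DDIT4 between -0.046 and 0.13 (negative without 24 or 32 hr) and RUNX2 between -0.0024 and 0.067 (negative without 24 hr). The cause was not tested. Low FPKM limits what can be seen for weakly expressed genes, and 1 line with 1 library per time and agent limits the p-values to the spread over time points.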
